A study of Mus musculus with 7 samples.

Results

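The T helper 17 programme was followed here through 8 genes, taken by symbol. They were the nuclear receptor gene Rora, the aryl hydrocarbon receptor gene Ahr and the cytokine receptor genes Il23r and Il17re. The others were the cytokine genes Il17a, Il17f and Il22 and the chemokine gene Ccl20. All 8 were found among the 39179 genes of the authors' deposited table, and all 8 were among the 31641 genes that have a p there. The cells were regulatory T cells, sorted as CD4+, TCRb+, CD25hi and Foxp3+ cells from the lymph nodes of C57BL/6 mice aged 3 weeks, and were profiled by RNA sequencing. In the replicated comparison, 2 control libraries carried the genotype label Id2fl/+Id3fl/+Foxp3cre and 3 double-knockout (dKO) libraries the label Id2fl/flId3fl/flFoxp3cre; the series text writes the Cre allele of the dKO as Foxp3Cre/Cre. Both groups therefore carried the Cre recombinase, which is expressed from Foxp3. By their label the controls had 1 floxed and 1 unfloxed allele of Id2 and of Id3, so they were heterozygous and not wild type. A single pair had 1 library of each kind by title, but its genotype tags are the reverse of its titles, so its libraries are named by title, as labelled control or labelled dKO.

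T helper 17 cells are CD4 T cells that make interleukin 17 and act at barrier surfaces. Nuclear receptors of the ROR family, RORalpha among them, switch on the interleukin 17 genes, and interleukin 6, interleukin 1 and interleukin 23 induce or maintain the state. Some regulatory T cells share parts of this programme while they keep Foxp3. Id2 and Id3 bind E proteins, the transcription factors that recognise E box sequences, and keep them from binding DNA.

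The values of the replicated comparison are the authors' group means of reads after division by each library's size factor, called scaled counts here. They summed to 3.90e+07 in control and 3.99e+07 in dKO. Low means are sums of the steps that single reads make, so the reads of each library could be worked back for the low genes, with size factors of 1.29 and 1.09 in control and 0.929, 0.910 and 0.860 in dKO. These libraries are called the deeper and the shallower control library and dKO libraries A, B and C, since nothing ties them to replicate numbers. The Y-linked genes Kdm5d and Uty together had recovered reads numbering 601 in the deeper control library and 15 in the shallower one, and the dKO means were 2.56 and 17.8 scaled counts in the authors' deposited table. The part of this difference between libraries in the results was not tested, but the low genes below are given for each control library on its own. The defining genes of the sorted cells were present in both groups, with Foxp3 at means of 13481 (control) and 10942 (dKO) scaled counts (adjusted p 0.188, authors' deposited table). Of 8 such genes, 1 rose, 0 fell and 7 did not pass. The one that rose was Ctla4, from 13258 to 26706 scaled counts (adjusted p 4.71e-05, authors' deposited table), which overlaps another annotated gene. Id2 went from 783 to 61.1 scaled counts (adjusted p 1.48e-08) and the means of Id3 were 1376 and 891 (adjusted p 0.2089) in the authors' deposited table. Fewer cells with a transcript and less transcript per cell cannot be told apart in such bulk samples.

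Of the 8 genes, 3 fell in dKO (Ccl20, Il17re and Ahr), 0 rose and 5 stayed above an adjusted p of 0.05 (authors' deposited table, DESeq). Among all 31641 genes tested, 3.18% fell. At an unadjusted p of 0.05, 5 of the 8 were lower (Rora and Il23r besides these 3) and 0 higher, where 6.87% of all genes were lower. The median log2 ratio of dKO over control was -1.31 over the 7 genes with both means above 0, beside -0.02 over all such genes tested. The 8 genes were reached by different numbers of reads, and 4 of them (Rora, Ahr, Il17re and Ccl20) had a mean of 10 or more scaled counts over the 5 libraries. All 3 that fell are among these 4, and 6.43% of the 15436 genes at this level fell. Among 12952 protein-coding genes at this level, the log2 ratio lay at the 0.193 percentile for Ccl20, 0.309 for Il17re, 2.53 for Ahr and 5.77 for Rora, counted from the lowest.

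**Figure D1:**
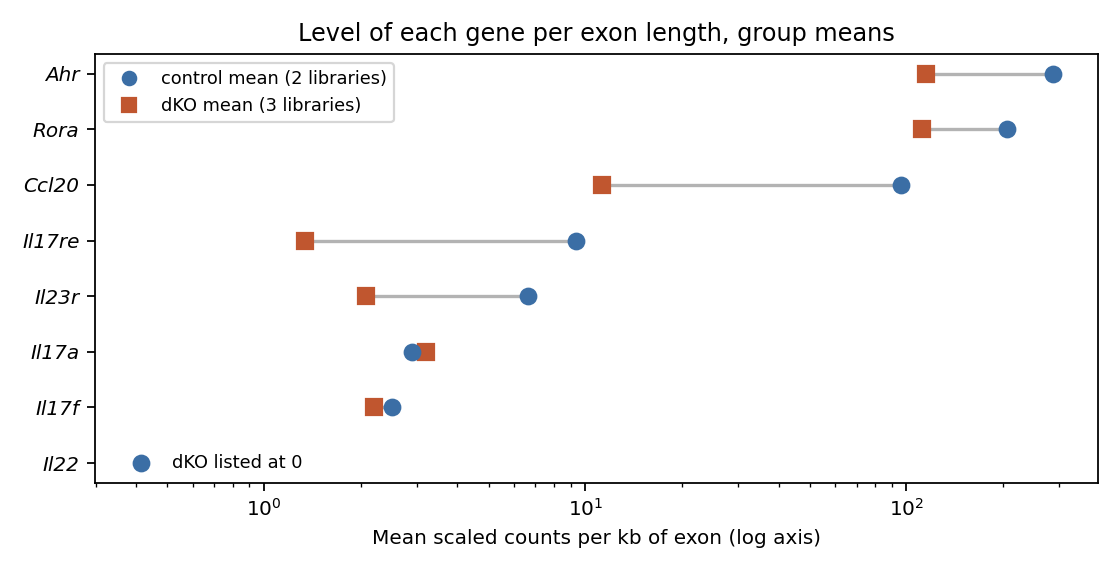
Mean scaled counts per kb of exon (log axis) of the 8 genes in control (circles, 2 libraries) and dKO (squares, 3 libraries), without error bars because the table gives group means. Ahr, Rora and Ccl20 had the highest control levels, and Ccl20 and Il17re have the widest gaps between the groups.

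Compared per kb of exon, the control means of the genes ran from 286 scaled counts per kb for Ahr, through 206 for Rora, 96.3 for Ccl20, 9.37 for Il17re, 6.62 for Il23r, 2.89 for Il17a and 2.50 for Il17f, to 0.412 for Il22. In dKO they were 115 for Ahr, 112 for Rora, 11.3 for Ccl20, 3.18 for Il17a, 2.20 for Il17f, 2.07 for Il23r and 1.34 for Il17re, and Il22 was listed at 0. Both cytokine receptor genes thus stood above the interleukin 17 genes in control and below them in dKO by their means. In control, Il17re at 9.87 and 8.87 per kb in the deeper and the shallower library lay above Il23r at 6.25 and 6.99, while Il17a at 2.66 and 3.13 lay next to Il17f at 2.65 and 2.34. In dKO the libraries of Il23r, from 1.32 to 3.03 per kb, overlapped those of Il17a, from 2.76 to 3.97, of Il17f, from 1.87 to 2.75, and of Il17re, from 0 to 2.57. Il17re lay below Il17a in every dKO library. Il17f and Il17a each had 3 reads in dKO library A, at 2.75 and 2.76 per kb, so these 2 genes were not apart there. The other pairs of these genes overlapped. All these dKO values rest on 7 reads or fewer per library, so their order is uncertain.

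The promoter windows of 4 of the genes are shown for the letters that the factors of this study are known to recognise. Capitals mark 3 motifs, searched on both strands: AGGTCA, the core bound by ROR receptors, which reads TGACCT on the opposite strand; GCGTG, the core bound by the aryl hydrocarbon receptor with its partner ARNT, which reads CACGC on the opposite strand; and the E box CANNTG, with its forms CAGCTG and CACCTG. Each window is the 250 bases before the RefSeq start, 5′ to 3′ on the gene's strand, in build GRCm38.p6. Ccl20 lies at chr1:83116516-83116765 on the plus strand, Il23r at chr6:67491856-67492105 on the minus strand, Il17a at chr1:20730655-20730904 on the plus strand and Rora at chr9:68653536-68653785 on the plus strand.
Ccl20: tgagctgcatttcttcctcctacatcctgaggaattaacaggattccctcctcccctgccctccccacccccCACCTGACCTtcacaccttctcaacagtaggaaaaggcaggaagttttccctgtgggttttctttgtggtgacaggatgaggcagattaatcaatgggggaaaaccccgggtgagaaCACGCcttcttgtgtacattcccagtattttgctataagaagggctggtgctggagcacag
Il23r: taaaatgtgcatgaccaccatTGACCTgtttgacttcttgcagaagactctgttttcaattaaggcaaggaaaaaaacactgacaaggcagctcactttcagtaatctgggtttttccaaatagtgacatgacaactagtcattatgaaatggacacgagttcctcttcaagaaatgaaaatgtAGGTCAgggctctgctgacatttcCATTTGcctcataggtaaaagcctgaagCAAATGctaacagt
Il17a: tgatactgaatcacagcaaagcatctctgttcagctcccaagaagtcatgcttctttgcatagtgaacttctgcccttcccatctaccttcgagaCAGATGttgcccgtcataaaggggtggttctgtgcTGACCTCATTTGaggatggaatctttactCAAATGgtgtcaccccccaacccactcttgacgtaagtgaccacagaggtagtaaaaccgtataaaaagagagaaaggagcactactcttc
Rora: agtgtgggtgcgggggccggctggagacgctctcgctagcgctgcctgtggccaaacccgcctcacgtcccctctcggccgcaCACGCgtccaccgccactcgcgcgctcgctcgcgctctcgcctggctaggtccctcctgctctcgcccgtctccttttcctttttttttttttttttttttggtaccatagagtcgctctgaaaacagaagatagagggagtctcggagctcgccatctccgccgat

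The Ccl20 window holds the E box CACCTG 178 bases before the start, and an opposite-strand ROR core at 174 that overlaps it, besides an AHR core at 61. The Il23r window holds ROR cores at 229 and 66 and E boxes at 42 and 14 bases before the start. In the Il17a window an opposite-strand ROR core at 120 is followed directly by an E box at 114, and further E boxes begin at 155 and 91. The Rora window holds no ROR core and no E box but 1 AHR core at 167. Of all 32851 promoter windows of this length, 14.0% hold AGGTCA, 28.2% GCGTG, 66.2% CANNTG, 17.2% CACCTG and 13.0% CAGCTG. None of the 7 windows searched holds CAGCTG. The windows of Il17re, Il17f and Il22 overlap an annotated exon and are not printed, and no entry was found for Ahr. A match of these letters is a description and not a binding site.

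**Figure D2:**
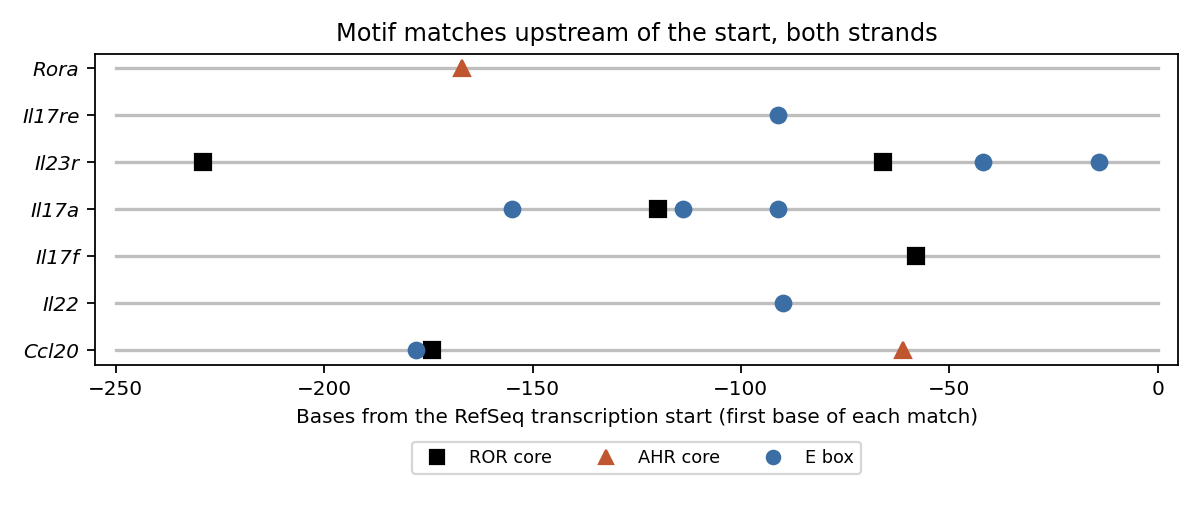
Positions of motif matches in the 250 bases before the RefSeq start of 7 genes (bases from the start on the x axis), with squares for the ROR core, triangles for the AHR core and circles for E boxes. ROR cores lie in the windows of Il23r, Il17a, Il17f and Ccl20, and AHR cores in those of Rora and Ccl20.

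Ahr (ENSMUSG00000019256, chromosome 12, 35497974 to 35535038, GRCm38), which encodes a receptor for plant- and microbe-derived ligands that promotes interleukin 22 production, fell from 1762 to 712 scaled counts. Its log2 ratio was -1.31, which the authors' deposited table gives at an adjusted p of 2.55e-18. No other annotated gene overlaps it there. Rora (ENSMUSG00000032238, chromosome 9, 68653786 to 69388246), which encodes RORalpha, had means of 2692 scaled counts (control) and 1468 (dKO). Its log2 ratio was -0.88, and the authors' deposited table gives a raw p of 0.0252 and an adjusted p of 0.231, which did not pass. Rora overlaps 2 other annotated genes, Gm15511 and F830001A07Rik, whose highest group mean was 2.68 scaled counts. Reads per library could not be recovered for Ahr and Rora, since many whole-read answers are possible at these levels.

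Ccl20 (ENSMUSG00000026166, chromosome 1, 83116766 to 83119167) encodes the chemokine that attracts cells bearing CCR6. It had 193 reads in the deeper and 135 in the shallower control library, or 150.0 and 124 scaled counts, and its dKO mean was 16.1. The dKO mean allows 2 whole-read answers for libraries A, B and C, either 1, 27 and 15 reads or 24, 14 and 6 reads, which are at most 29.7 scaled counts. Every dKO library thus lay below both control libraries under either answer, the control library with few Y-linked reads included. Ccl20 fell by 3.09 on the log2 scale, or 8.52-fold, which the authors' deposited table gives at an adjusted p of 6.54e-19. Without dKO library B the log2 ratio was -3.88 and without library A -2.54 under the first answer.

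Il17re (ENSMUSG00000043088, chromosome 6, 113458484 to 113470751) encodes the chain that pairs with the product of Il17ra to receive interleukin 17C. It had 38 and 29 reads in the deeper and the shallower control library and 4, 7 and 0 reads in dKO libraries A, B and C. These are 29.5 and 26.5 scaled counts against 4.30, 7.69 and 0, where 0 reads in library C allow up to 3 reads, or 3.49 scaled counts, for counting error only. Control stood at 28.0 ± 2.12 (SD, n = 2) and dKO at 4.0 ± 3.9 (SD, n = 3), and the groups did not overlap. Il17re fell by 2.81 on the log2 scale, or 7.01-fold, which the authors' deposited table gives at an adjusted p of 0.0007. Without dKO library B the log2 ratio was -3.70 and without library C -2.23. Il17rc, the next gene on the chromosome at 0.676 kb and a receptor chain for interleukin 17A and 17F, had means of 7.30 and 6.65 scaled counts (adjusted p 1, authors' deposited table).

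Il23r (ENSMUSG00000049093, chromosome 6, 67422932 to 67491855) encodes the chain that, with the product of Il12rb1, forms the interleukin 23 receptor. It had 20 and 19 reads in the deeper and the shallower control library and 7, 3 and 4 reads in dKO libraries A, B and C. That gave 16.5 ± 1.30 scaled counts in control (SD, n = 2) and 5.16 ± 2.16 in dKO (SD, n = 3), again without overlap. The log2 ratio was -1.67, and the authors' deposited table gives a raw p of 0.0234 and an adjusted p of 0.219, which did not pass. For comparison, 6311 genes had reads recovered in all 5 libraries, at least 10 reads in total and means below 60 scaled counts in control and 12 in dKO. Of these, 15.0% had every dKO library below both control libraries, so such a gap is not rare among them. The limits admit higher means in control than in dKO, so this share leans towards genes that are lower in dKO. An exact two-sided permutation test over the 5 libraries gave 0.1 for Il17re and for Il23r, the smallest p that 10 splits allow, and 0.2 for each after Benjamini-Hochberg adjustment over the 4 genes tested so.

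The cytokine genes themselves were barely detected. Il17a (ENSMUSG00000025929, chromosome 1, 20730905 to 20734496) had 4 reads in each control library and 3, 3 and 4 reads in dKO libraries A, B and C. Il17f (ENSMUSG00000041872, chromosome 1, 20777151 to 20784270), its neighbour at 42.7 kb, had 4 and 3 reads in control and 3, 2 and 2 in dKO. Groups overlapped for both genes, with 3.39 ± 0.39 against 3.73 ± 0.80 scaled counts for Il17a and 2.93 ± 0.26 against 2.58 ± 0.56 for Il17f (SD, n = 2 and 3). The exact permutation test gave 0.8 for Il17a and 0.5 for Il17f, and their adjusted p was 1 in the authors' deposited table. Il22 (ENSMUSG00000074695, chromosome 10, 118204942 to 118210047) had 1 read in the shallower control library and 0 in the other 4, which allows up to 3.49 scaled counts in the library with the smallest size factor. Iltifb, a near-identical copy of Il22, had 6 and 4 reads in control and 1, 5 and 0 in dKO, and reads of these 2 genes may be shared. At this depth no difference was detectable for the 3 cytokine genes.

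**Figure D3:**
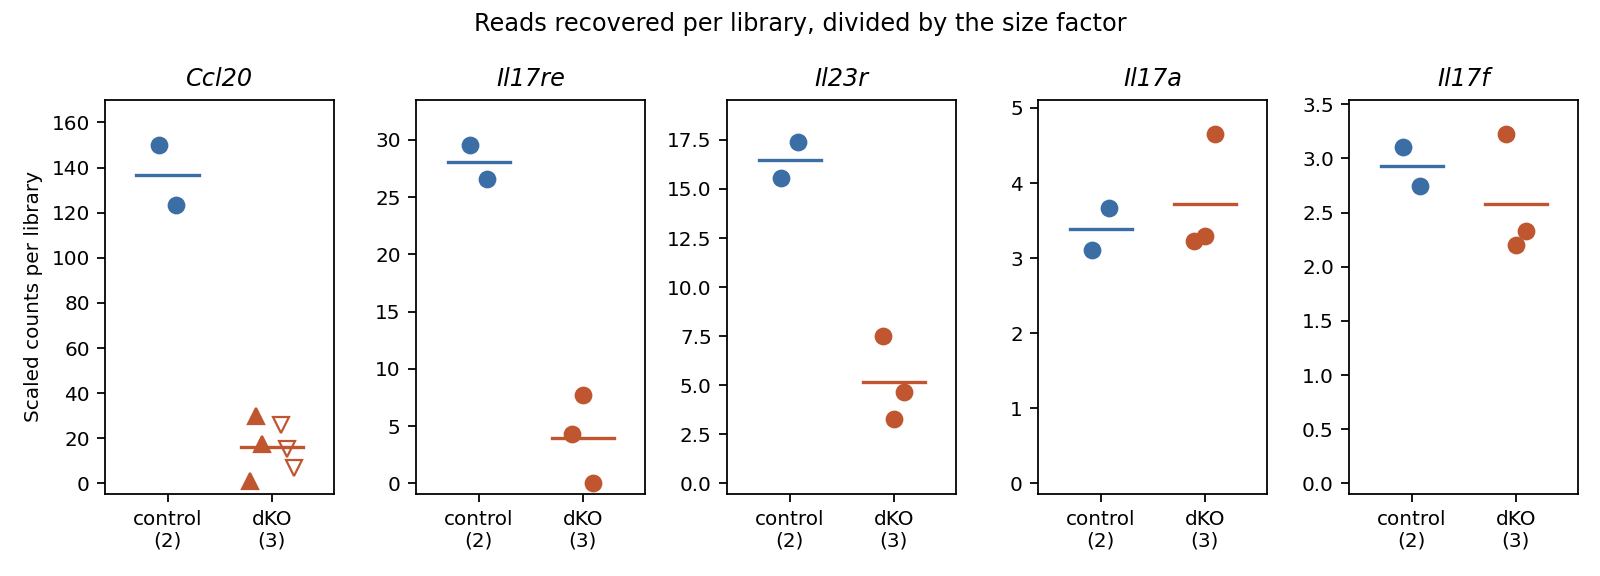
Scaled counts per library, from recovered reads divided by the size factor, in control (blue, 2 libraries) and dKO (orange, 3 libraries), with lines at the authors' group means; for Ccl20 the filled and open triangles are the 2 possible sets of dKO reads. Control and dKO are apart for Ccl20, Il17re and Il23r and overlap for Il17a and Il17f.

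Calls among the genes around the 8 went in both directions. Of 14 distinct nearest protein-coding neighbours that are not among the 8, the authors' deposited table has 1 that fell, 3 that rose and 10 that did not pass. Over all genes tested 3.18% fell and 3.38% rose. The neighbours were looked up after the values of the 8 genes had been seen. Daw1, 40.6 kb from Ccl20, fell from 130 to 26.5 scaled counts, a log2 ratio of -2.29 which the authors' deposited table gives at an adjusted p of 0.0069. Il12rb2, 46.7 kb from Il23r and a chain of the interleukin 12 receptor, had means of 54.9 and 153 scaled counts, which the authors' deposited table gives at an adjusted p of 0.722. The neighbours that rose were Snx13 (log2 0.47) beside Ahr, Mcm3 (0.42), a subunit of the replicative helicase, beside Il17f, and Mdm1 (0.68) beside Il22.

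Related genes were read from 11 lists that together hold 58 genes besides the 8. Of these, the authors' deposited table has 10 that fell, 3 that rose and 45 without a call, and their median log2 ratio was -0.13. The shares of all genes tested that fell and rose were 3.18% and 3.38%. Maf, Hif1a, Stat3, Tiparp, Cxcr6, Lta, Il21, Csf2, Il17c, Il10rb, Jak1, Ets1, Nr1d1 and Rora overlap another annotated gene. So do Foxp3, Runx1, Bhlhe40, Il1rap, Tyk2, Tcf7 and Gfi1, and some reads of all these genes may belong to the other gene.

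Among 10 transcription factors and cofactors, Maf fell and Hif1a and Fosl2 rose, with 7 that did not pass and a list median of 0.22. Maf, a factor that promotes interleukin 10, fell by 0.90 on the log2 scale (adjusted p 1.86e-10, authors' deposited table). Fosl2, an AP-1 family factor, rose from 190 to 966 scaled counts (adjusted p 0.0001, authors' deposited table), and Hif1a, the hypoxia-inducible factor gene, rose by 1.33 on the log2 scale (adjusted p 4.28e-10, authors' deposited table). Stat3, which carries the interleukin 6 and 23 signal, had a log2 ratio of 0.13, Batf of 0.40 and Irf4 of 0.51, and none of these passed (authors' deposited table).

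Of 3 other nuclear receptors of the ROR and REV-ERB families, the REV-ERB genes Nr1d1 and Nr1d2, repressors that compete with ROR receptors for the same sites, fell and Rorb did not pass. Nr1d2 fell from 1005 to 429 scaled counts, a log2 ratio of -1.23 which the authors' deposited table gives at an adjusted p of 1.93e-12. Nr1d1 had a log2 ratio of -2.34 (adjusted p 0.0022, authors' deposited table), but it overlaps Thra, whose log2 ratio was -2.27, and their reads cannot be told apart if strand was not used.

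Among partners and target genes of the Ahr product, 0 of 8 passed in the authors' deposited table (DESeq), with 1 higher and 0 lower at an unadjusted p of 0.05. That one was Tiparp, a target that feeds back on the receptor, with means of 500.2 and 900.4 scaled counts (adjusted p 0.145, authors' deposited table). Cyp1a1, the classical target, had 13 and 12 reads in control and 6, 2 and 7 in dKO libraries A, B and C. In scaled counts, Cyp1a1 had 10.1 and 11.0 against 6.46, 2.20 and 8.14. Every dKO library thus lay below both control libraries, as in 15.0% of the 6311 genes compared above. Ahrr, the repressor of the receptor, had 13 and 21 reads in control and 8, 7 and 10 in dKO. After division by the size factors these were 10.1 and 19.2 scaled counts against 8.61, 7.69 and 11.6, so the groups overlapped. The partner gene Arnt had means of 1914 and 1774 scaled counts (adjusted p 1, authors' deposited table), and Ptges3, a cochaperone of the receptor, had the highest mean of the list at 5190 and 5668.

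Among 8 receptor chains for cytokines that induce or expand T helper 17 cells, 2 fell, 1 rose and 5 did not pass. Il1r1, the interleukin 1 receptor, went from 87.8 to 26.2 scaled counts (adjusted p 0.0001, authors' deposited table) and Tgfbr2, a chain of the TGF-beta receptor, had a log2 ratio of -0.65 (adjusted p 3.01e-05, authors' deposited table). Il12rb1, the partner chain of Il23r, rose by 0.90 on the log2 scale (adjusted p 0.0038, authors' deposited table). The interleukin 6 receptor genes had means of 6415 and 6301 scaled counts (Il6ra) and of 11257 and 13385 (Il6st), and neither passed (authors' deposited table). In the interleukin 17 receptor family Il17ra, the shared chain, fell by 0.46 on the log2 scale (adjusted p 0.0093, authors' deposited table), and 3 of 4 did not pass. Il17rb, which receives interleukin 25, had means of 490.3 and 241 scaled counts (adjusted p 0.111, authors' deposited table).

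Of 4 homing receptors 3 fell and 1, Ccr4, did not pass. Ccr6, the receptor of Ccl20, fell from 1554 to 456 scaled counts, a log2 ratio of -1.77 which the authors' deposited table gives at an adjusted p of 0.0008. Gpr15, which guides T cells to the large intestine, fell by 3.12 on the log2 scale (adjusted p 7.95e-43, authors' deposited table), and Cxcr6 had a log2 ratio of -2.00 (adjusted p 0.0147, authors' deposited table). Of 5 other effector cytokines, Lta fell by 1.06 on the log2 scale (adjusted p 0.0114, authors' deposited table) and 4 did not pass. Il21 had means of 41.7 and 40.3 scaled counts, and Csf2 had 2 and 5 reads in control and 2, 2 and 1 in dKO.

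The remaining lists held 0 genes past the threshold in the authors' deposited table (DESeq). These were 4 other interleukin 17 family cytokines (0 at an unadjusted p of 0.05), led by Il17c at 5.86 and 9.01 scaled counts, and 3 genes of the interleukin 22 receptor and binding protein (0), led by Il10rb at 2271 and 2470. Among 5 JAK and STAT genes, 1 was lower at an unadjusted p of 0.05, and Jak1 had the highest mean at 23239 and 20148 scaled counts. Among 6 factors that restrain the programme, 2 were higher and 1 lower at an unadjusted p of 0.05, and Ets1 had the highest mean with 47510 and 50275 scaled counts.

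**Figure D4:**
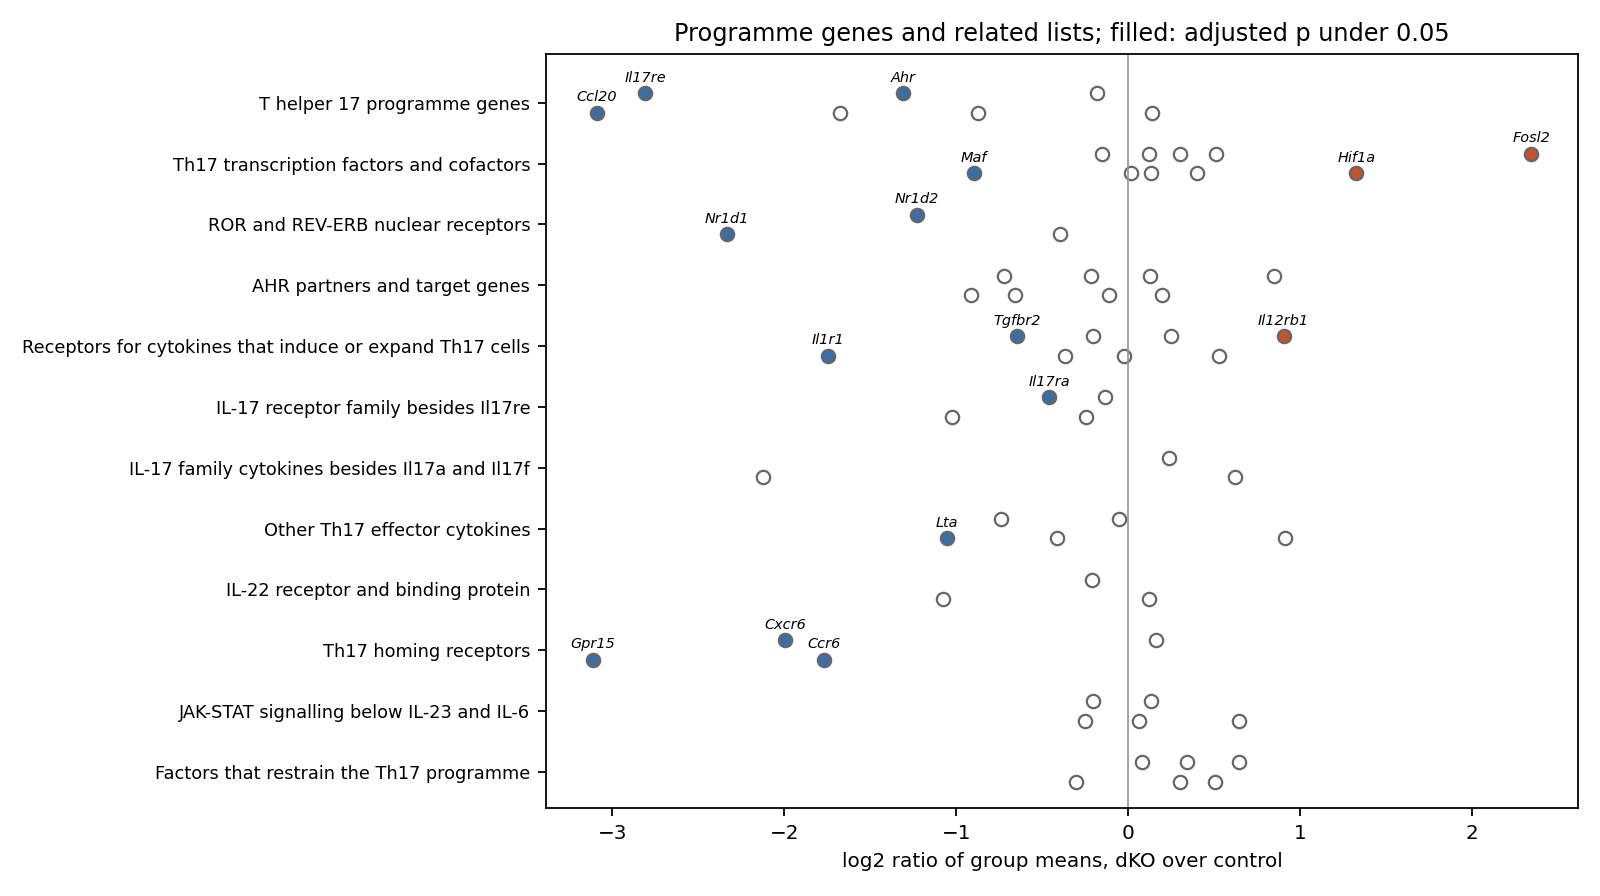
Log2 ratios of group means, dKO over control, for the 8 programme genes (top row) and 11 related lists, 1 point per gene; filled points passed an adjusted p of 0.05 (blue fell, orange rose) and open points did not. Genes listed at 0 in a group are left out; Gpr15, Ccl20 and Il17re lie farthest to the left and Fosl2 farthest to the right.

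Markers of other cells that carry T helper 17 genes were measured beside these results. The list for interleukin 17-producing gamma delta T cells held 8 genes, of which Trdc had no value with a p under that symbol. Of the other 7, 0 passed in the authors' deposited table (DESeq) and 2 were lower at an unadjusted p of 0.05. Their summed level was 656 scaled counts in control and 244 in dKO. Most of that was in Tcrg-C1 (291 and 98.3 scaled counts), Tcrg-C2 (137 and 29.2) and Tcrg-C4 (113 and 17.3), and none of the 7 was at 0. Tcrg-C4 overlaps another annotated gene. The means differed less for 5830411N06Rik (75.6 in control and 67.2 in dKO) and Cd163l1 (15.0 and 11.4). Sox13 had 10 and 10 reads in control and 13, 9 and 10 in dKO, or 7.77 and 9.15 scaled counts against 14.0, 9.89 and 11.6. Blk had 21 and 18 reads against 9, 4 and 10, or 16.3 and 16.5 scaled counts against 9.69, 4.39 and 11.6. Every dKO library was thus above both control libraries for Sox13 and below both for Blk. Of the 6311 genes compared above, 15.0% had every dKO library below both, and the share above both was not available. Control libraries differed in the gamma chain genes, with 169 scaled counts of Tcrg-C1 in the deeper and 414 in the shallower library and 66.9 and 158 of Tcrg-C4. In the same order the scaled counts were 150.0 and 124 for Ccl20, 29.5 and 26.5 for Il17re and 15.5 and 17.4 for Il23r. Of 5 markers of group 3 innate lymphoid cells, 1 passed, Tnfsf11, which fell from 1437 to 635 scaled counts (adjusted p 7.37e-14, authors' deposited table). Kit, another of them, had 78 and 176 reads in the control libraries and a dKO mean of 21.5 scaled counts (adjusted p 0.178, authors' deposited table), Ncr1 had means of 0.777 and 0.754, and the summed level of these markers was 3015 and 1586. Of 4 markers of NKT and MAIT cells 0 passed (DESeq, 1 lower at an unadjusted p of 0.05), with sums of 602 and 214 scaled counts, of which Il18rap made 523 and 144, and Klrb1a was listed at 0 in dKO. Of 4 epithelial markers, which bear on Ccl20, Epcam rose from 612 to 2307 scaled counts (adjusted p 1.82e-07, authors' deposited table), and the keratin genes had means of 27.2 and 13.4 (Krt18, raw p 0.0454 and adjusted p 0.3455 in the authors' deposited table), 1.69 and 1.11 (Krt8) and 0.389 and 1.45 (Krt19). The part of these markers in the results was not tested.

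The single pair gave values for the same genes in 1 library each, as FPKM, fragments scaled to transcript length and library size, and without a test of the genotypes. Ahr had 7.88 FPKM in the library labelled control and 7.59 in the library labelled dKO, and Rora 8.46 and 8.78. With 1 FPKM added to each value, the log2 ratios were -0.05 for Ahr and 0.05 for Rora, where the replicated ones were -1.31 and -0.88. Ccl20, summed over its 2 transcripts, had 2.13 FPKM in the library labelled control and 0.128 in the library labelled dKO, a log2 ratio of -1.47 with 1 FPKM added to each value and of -3.29 with 0.1 FPKM added. The other 5 genes were at 0.26 FPKM or less in both libraries, where Il23r had 0.173 and 0, Il17f 0.0815 and 0.158, Il22 0 and 0.26, and Il17a was listed at 0 in both. By the step that 1 fragment makes, Il23r had about 5.14 fragments in the library labelled control, Il17f about 1.15 and 2.28 and Il22 about 3.55 in the library labelled dKO. Daw1, the neighbour of Ccl20, had 1.38 and 0.318 FPKM, and the chemokine's receptor gene Ccr6 42.7 and 16.0.

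In the pair, 8 of 9 related genes that fell in the replicated comparison and had 1 FPKM or more in either library were lower in the library labelled dKO. Over all 764 genes of that kind 90.4% were lower, and among all 10776 genes at this level 50.3% were. The exception was Nr1d2, at 3.30 and 3.63 FPKM. Of 3 related genes that rose, 2 were higher in the library labelled dKO, where 92.2% of all such genes were, and Fosl2 was the exception with 1.15 and 0.894 FPKM. Gpr15 had 7.5 and 1.2 FPKM. Of the targeted genes, Id2 had 18.6 and 9.69 FPKM, lower in the library labelled dKO, and Id3 had 159.8 and 221, higher there. If the genotype tags and not the titles held, every direction of the pair would be the opposite. The libraries of the pair also differed in Ddx3y, with 21.6 FPKM in the one labelled control and 0.155 in the other, and in Xist, with 0.0323 and 29.0, and the part of this in the pair's values was not tested.

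**Figure D5:**
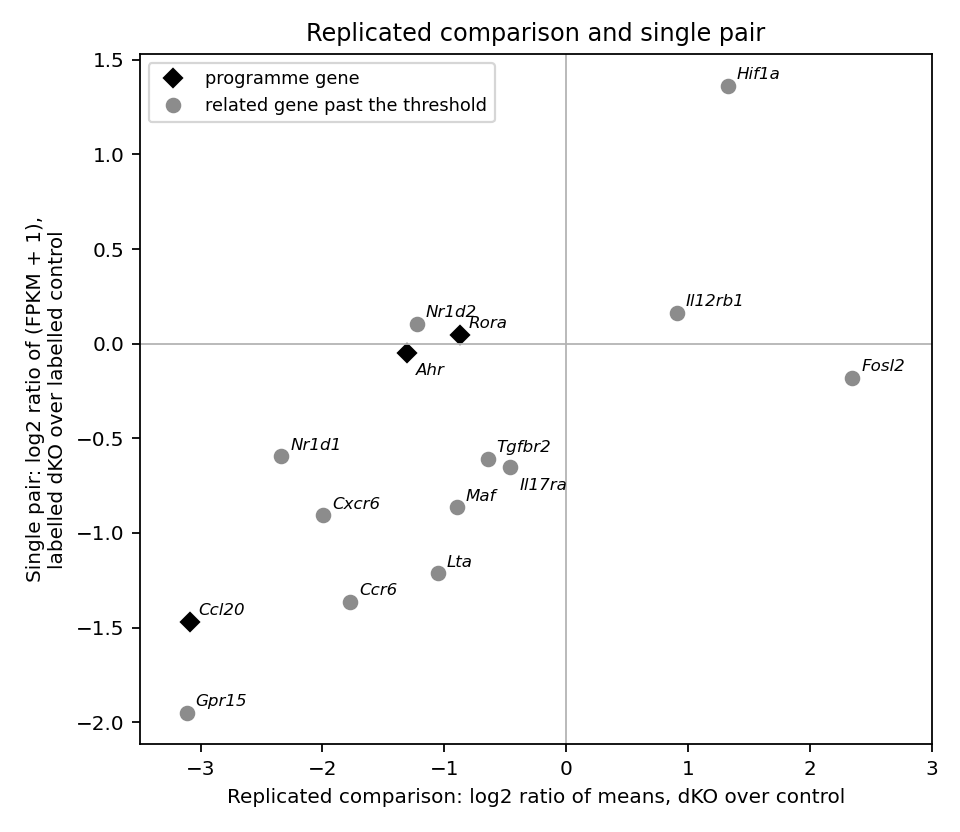
Log2 ratio in the replicated comparison (x axis) against the log2 ratio of FPKM + 1 in the single pair (y axis), for programme genes (diamonds) and related genes past the threshold (circles) with 1 FPKM or more in either library of the pair. Ccl20 is low on both axes, while Ahr and Rora lie near 0 on the y axis.

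By the log2 ratios of both comparisons together, the genes nearest to Ahr among 9280 were Slfn8 (distance 0.0762 in log2 units) and Nr1d2 (0.173), and those nearest to Rora were Kif7 (0.0232) and Acvr2a (0.0478). This likeness rests on 2 ratios per gene, from 4 values.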

How the data were processed

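The deposited signal of the replicated comparison is, per the file headers, the abundance of dKO and control as 1 value per group, and the values are fractional group means of scaled counts. The deposited log2 ratios and deposited p-values come from the authors' table, and per the submitters' processing notes RSEM and DESeq were used on mm10 (GRCm38), without versions. The deposited FPKM, p-values and q-values of the pair come from TopHat 1.4.0 and Cuffdiff 0.0.6 on mm9, per the submitters' processing notes, and 97.5% of 27901 RefSeq entries matched a symbol. Whether counting used strand: not given in the sources used here.

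Genes past an adjusted p of 0.05 in the authors' table are said to have risen or fallen, and an exact two-sided permutation test over libraries was added for 4 genes with recovered reads. Log2 ratios were taken from the group means. Reads per library were recovered as the whole-read combination whose steps sum to a mean within 6e-05, where 1 combination did, and this was tested on simulated data. Whether libraries came from separate animals is not stated, so p-values measure the spread between libraries, which may be technical. Intervals and limits from reads cover counting error only. Python 3.11.15 with numpy 2.4.6 and pandas 2.3.3 was used.

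The 8 genes, the lists and the tests were chosen with earlier results of these data known. The rule for named genes takes the 8, Id2, Id3 and, from each list, up to 4 genes past the threshold or else the one with the highest mean; further genes were named after their values were seen. Whether a gene overlaps another was taken from the authors' deposited table, and transcript lengths for the pair from GENCODE vM21. Alternatives were thresholds, adjustments, pseudocounts, scaling and leaving out libraries. 1 gene of the lists is not reported here and was left out of their counts.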

Additional observations from a re-analysis of the deposited data

How the results depend on the processing

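Among the 8 genes, 3 fell and 0 rose at adjusted p thresholds of 0.01 and 0.1 as at 0.05, and with the adjustment run over genes with a mean of 10 or more or over genes that overlap no other. Rora had an adjusted p of 0.115 over genes with a mean of 10 or more and Il23r of 0.221 over genes without overlap. Among related genes, 8 to 11 fell and 3 rose under the thresholds and the adjustment tried. Leaving out 1 library at a time, where reads were recovered, gave log2 ratios from -3.88 to -2.54 for Ccl20, from -3.70 to -2.23 for Il17re, from -2.05 to -1.43 for Il23r, from -0.37 to -0.08 for Il17f and from -0.05 to 0.26 for Il17a. The Il17a ratio was -0.054 without dKO library C, the one opposite sign among these, in a gene of 3 or 4 reads per library. Il17re in the pair was 0.010 with its highest transcript in place of the sum, at FPKM values near 0. Of the values of single genes under the alternatives, 2, given above, changed sign. The log2 ratios with a pseudocount of 10 scaled counts were -1.44 for Il17re, -2.49 for Ccl20 and -0.80 for Il23r, and with 0.1 FPKM in the pair -3.29 for Ccl20, -1.45 for Il23r, 0.51 for Il17f and 1.85 for Il22. Leaving out libraries could not be done for Ahr and Rora, or for counts of called genes, because the table gives group means. No paired analysis was possible because the table holds 1 mean per group and the recovered libraries carry no replicate number. Reads limit what can be seen of Il17a, Il17f and Il22, with 1 to 18 reads over all 5 libraries.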
